A study of Mus musculus with 18 samples.

Results

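RNA of the lacrimal gland was compared with RNA of the submandibular gland in orchiectomised male BALB/c mice that carried placebo pellets for 21 days, so that both glands were measured without testicular androgen. The comparison rests on 6 of the 18 arrays of the study, all those labelled lacrimal with placebo (3) and submandibular with placebo (3). The other 12 arrays cover the meibomian gland with placebo and all 3 glands of orchiectomised mice given testosterone pellets for 21 days. Each array held RNA of 1 pool, named A, B or C, and the labels give a pool as 10 glands from 5 animals, although another of their fields counts 4 animals for each sex and experiment. The animals' age, the array model and the scanner were not given in the sources used here. Of 10500 probes, 7090 were tested, and 6239 of these named 1 of 6155 genes. The 6 testosterone arrays of these glands entered the same fit for its estimate of spread, and they gave a second set of pools in which each difference was measured again.

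Both glands are exocrine and are built from acini, which make the primary fluid and its proteins, and from ducts, which modify it. The lacrimal gland secretes the watery layer of tears, with lactoferrin, lipocalins and secreted immunoglobulin. The submandibular gland is a salivary gland whose striated and granular ducts take up sodium and chloride, and in rodents the granular ducts also store kallikreins and growth factors and are larger in males. Acinar cells load their endoplasmic reticulum with secretory protein, while duct cells depend on the sodium pump and on many mitochondria. In RNA of whole glands, fewer cells of a type and less RNA per cell cannot be told apart.

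Values below are intensities on a linear scale as the authors deposited them, scaled to an array median between 0.942 and 0.952 on these 6 arrays. Differences are lacrimal minus submandibular means of log2(intensity + 0.249) over 3 pools a gland, which understates the change of dim genes. Each is given ± the moderated SE of the limma fit, whose spread per probe is pooled over all 12 arrays of these glands. Where a single placebo pool stood apart, that SE can be smaller than the spread of the placebo pools alone. Where a testosterone pool stood apart, it can be larger. Precision is limited by how many arrays there are. Adjusted p-values come from limma with Benjamini-Hochberg adjustment over all 7090 tested probes, and a probe was called at an adjusted p under 0.05. Spearman correlations between pools were 0.96 to 0.969 in the lacrimal and 0.936 to 0.957 in the submandibular placebo gland. Some pools stood apart for a few probes. In lacrimal pool A 7 tested probes were over 8-fold above both other pools, and in lacrimal pool C 7 were over 8-fold below both others. In submandibular pool C 26 were over 8-fold below both others, against 12 in pool A and 1 in pool B. More stood apart in the submandibular testosterone pools, with 48 such probes in pool A and 46 in pool C. Those pools enter the spread of each probe and the changes with testosterone. The lacrimal arrays had the wider range, with a highest intensity of 976.8 to 1042 against 647 to 742.6. The median difference over all probes was 0.09, and it was 0.48 in the brightest of 10 equal groups of probes and between -0.04 and 0.16 in the others, which bears on the bright gene groups below.

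Of the 7090 probes 2835 (40%) were called between the placebo glands. The lacrimal gland was higher for 1685 probes (23.8%) and the submandibular gland for 1150 (16.2%). Counts of calls in the gene lists below are to be read beside these shares. A gene can be a member of several lists, so the counts of different lists overlap. After quantile normalization 51.4% of the calls were higher in the lacrimal gland, against 59.4% with the deposited scaling. At least 2-fold differences were called for 567 probes (8%) in the lacrimal and 512 (7.22%) in the submandibular direction, and 82 and 76 of these were at least 8-fold. In genes, 1471 were called higher in the lacrimal and 1015 higher in the submandibular gland, and 4 of them (Ccdc163, Cct4, Gnas and Tsc22d4) had probes called in both directions.

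**Figure D1:**
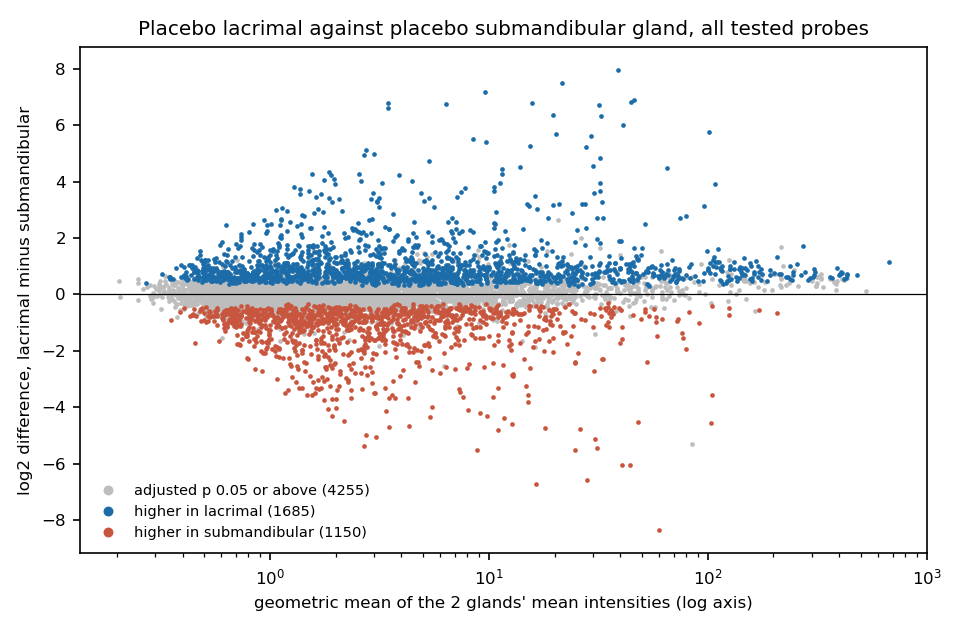
Log2 difference between the placebo glands (lacrimal minus submandibular) against the geometric mean of both glands' mean intensities on a log axis, for the 7090 tested probes. Blue points (1685) were called higher in the lacrimal gland, red points (1150) in the submandibular gland, and grey points (4255) were not called. The median difference of the brightest of 10 equal groups of probes was 0.48, against 0.09 over all probes.

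The genes that separated the glands most included secreted proteins on the lacrimal side and a kallikrein, sodium pump subunits and growth factors on the submandibular side. Sval2, a seminal vesicle antigen-like secreted protein, measured 613, 651 and 647 in lacrimal pools A, B and C and 3.08, 1.96 and 2.07 in the submandibular pools, a difference of 7.95 ± 0.21 (adjusted p = 1.23e-10). All lacrimal pools were close together and far above all submandibular pools. Klk1b5, a glandular kallikrein of the granular ducts, measured 647, 672 and 743 in the submandibular gland against 14.7, 0.579 and 0.487 in the lacrimal gland (-8.36 ± 1.14, adjusted p = 0.000115). Lacrimal pool A was the high one here, and the difference without it was -9.79. Kallikreins of this family are near-identical in sequence, so the probe may also have read other members.

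**Figure D2:**
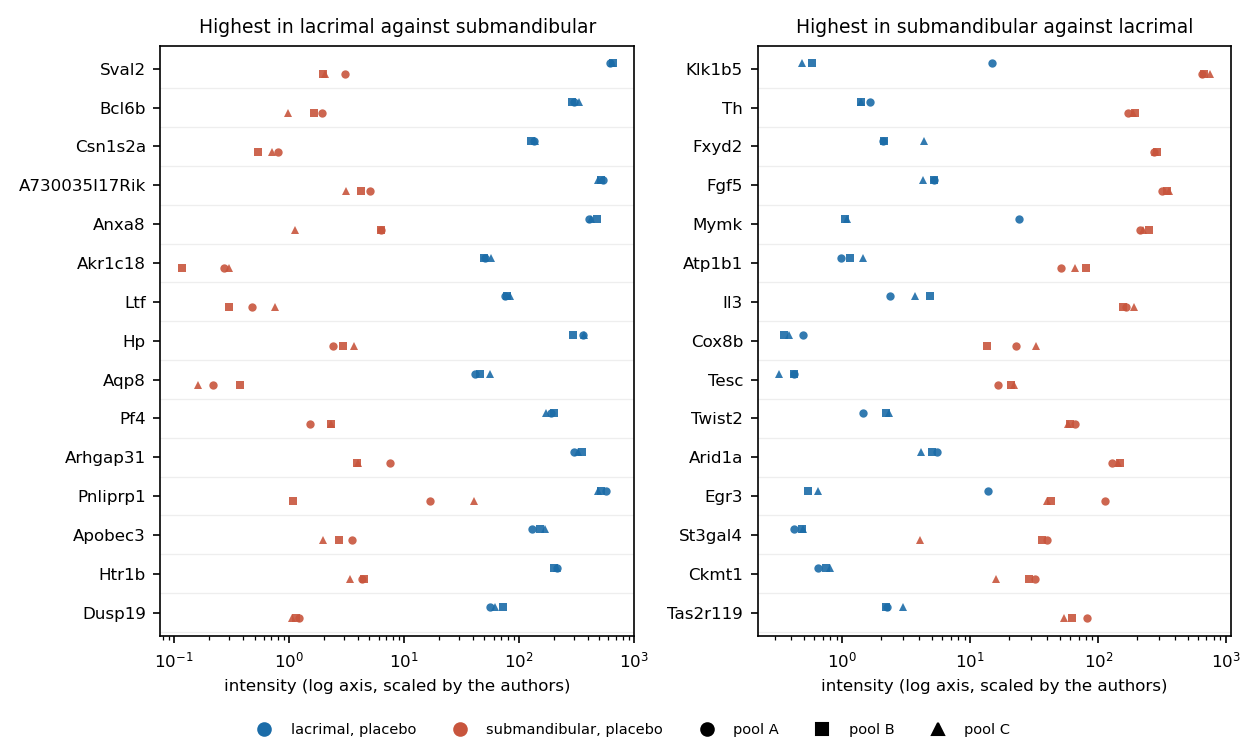
Intensity in each placebo pool, on a log axis, of the 15 named genes with the largest differences in each direction among those called and with the pools of the glands apart. Blue marks are lacrimal and red marks submandibular pools, and circles, squares and triangles are pools A, B and C. Lacrimal pool A stands to the right of pools B and C for Klk1b5, Mymk and Egr3.

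Among products of tears, 7 of 13 tested probes (53.8%) were called higher in the lacrimal gland and 0 in the submandibular gland, beside 23.8% and 16.2% of all probes. The median difference was 1.15 against 0.09 over all probes. Ltf, the iron-binding antimicrobial lactoferrin, measured 75.3, 79.0 and 83.9 against 0.474, 0.3 and 0.761 (6.75 ± 0.26, adjusted p = 2.04e-09). The submandibular values lie near the dim end of the arrays. Pnliprp1, a pancreatic lipase-related protein, measured 567, 516 and 490 in the lacrimal pools and 16.9, 1.09 and 40.4 in the submandibular pools (5.74 ± 0.97, adjusted p = 0.000565), so the submandibular pools spread widely below the lacrimal ones. The difference was 4.31 without submandibular pool B and 6.77 without pool C. Pigr, the receptor that carries immunoglobulin across the epithelium, measured 53.3, 55.7 and 77.6 against 14.9, 14.0 and 18.2 (1.96 ± 0.32, adjusted p = 0.000436). Scgb1b2, a secretoglobin, was bright in both glands, at 977 to 1042 and 439 to 467, and its difference of 1.15 ± 0.16 (adjusted p = 0.000119) was not called when all 18 arrays were fitted together (adjusted p = 0.265).

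Products shared by tears and saliva were bright in both glands. Car6, the secreted carbonic anhydrase of saliva and tears, measured 536, 575 and 530 in the lacrimal and 521, 473 and 532 in the submandibular pools, and the pools of the glands overlapped. Its difference was 0.11 ± 0.19 (adjusted p = 0.694), and quantile normalization turned it to -0.40 (adjusted p = 0.00354), so no direction is given. Lpo, the peroxidase of both fluids, measured 464 to 532 in the lacrimal and 139 to 166 in the submandibular gland (1.72 ± 0.14, adjusted p = 1.11e-06). Aqp5, the apical water channel of acinar cells, measured 30.8, 25.4 and 26.3 against 22.2, 22.9 and 23.9 (0.25 ± 0.12, adjusted p = 0.124).

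Of 10 tested probes for products of saliva, 5 (50%) were called higher in the submandibular and 2 (20%) in the lacrimal gland. The median was -0.46 and ran from -1.03 to 0.14 when single arrays were left out. The 5 submandibular calls were Amy1, Muc13, Mucl1, Smr2 and Tfcp2l1. Of these, Tfcp2l1 is a transcription factor and not a secreted product. Amy1, salivary amylase, measured 284, 245 and 240 in the submandibular pools and 120, 1.97 and 4.47 in the lacrimal pools (-4.57 ± 1.22, adjusted p = 0.0105). Lacrimal pool A was far above the other lacrimal pools, and without it the difference was -6.31 (adjusted p = 0.000132). The glycoproteins Muc13, a membrane mucin, and Mucl1, a small mucin-like protein, had submandibular values of 6.6 to 7.33 and 1.75 to 2.69 and differences of -3.56 ± 0.23 and -2.30 ± 0.16. On the lacrimal side, Agr2, a disulfide isomerase of mucus-secreting cells, measured 318, 292 and 327 against 13.5, 12.7 and 14.7 (4.49 ± 0.13, adjusted p = 2.14e-10).

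Other genes that were high in the submandibular gland were also higher in lacrimal pool A than in lacrimal pools B and C. Chia1, a chitinase of saliva and stomach, measured 84.5, 1.14 and 1.8 in the lacrimal pools and 212 to 292 in the submandibular pools, and it was not called (-5.31 ± 2.13, adjusted p = 0.0674). Without lacrimal pool A it was called (-7.20, adjusted p = 0.0236). It was also called when the placebo arrays were fitted alone (-5.30, adjusted p = 0.0124). The same held without submandibular testosterone pool C (-5.31, adjusted p = 0.0186), so its call turns on the pooled spread as well. Chil3, a chitinase-like protein, measured 7.2, 0.486 and 0.412 against 18.8 to 67.3, and its call was lost when some single arrays were left out. Both were looked at because of their pool A values. Mymk, named for a muscle fusion protein, measured 23.8, 1.05 and 1.09 against 211 to 249, and its difference without pool A was -7.43. In the lacrimal testosterone pools A, B and C, Amy1 measured 7.82, 10.7 and 85.6, Chia1 0.395, 1.96 and 47.3, and Chil3 0.154, 0.538 and 3.48. Pool C was thus the high pool there, while Mymk measured 1.98, 2.27 and 2.81. The source of the high values in these pools was not tested.

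All 3 tested markers of granular convoluted tubule cells were called higher in the submandibular gland. These 3, Klk1b5, Egf and Smr2, are also members of the list of granular duct products. Of that list 4 of 6 probes (66.7%), the same 3 and Nrtn, were called higher there, beside 16.2% of all probes, and 0 were called in the other direction. Egf, the epidermal growth factor stored in these ducts, measured 33.7, 38.2 and 33.9 against 4.92, 3.30 and 2.24 (-3.31 ± 0.21, adjusted p = 1.35e-07). Smr2, a submaxillary gland androgen-regulated protein, measured 4.50, 5.11 and 4.94 against 2.73, 2.01 and 2.07 (-1.03 ± 0.15, adjusted p = 0.000185). The submandibular pools were above all lacrimal pools for both genes. Nrtn, the neurotrophic factor neurturin, measured 6.66 to 6.85 against 2.83 to 3 (-1.15 ± 0.17, adjusted p = 0.000176).

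Proteins of host defence were called higher in the lacrimal gland for 8 of 11 probes (72.7%) and in the submandibular gland for 0, with a median of 1.96. Ltf, Pigr and Lpo among these calls, and the tested Lyz1 and Lyz2, were also counted among the products of tears. Hp, haptoglobin, which binds free haemoglobin, measured 358, 296 and 364 against 2.43, 2.96 and 3.64 (6.71 ± 0.17, adjusted p = 9.46e-11). Dmbt1, a mucosal glycoprotein that binds bacteria, measured 24.0, 15.6 and 20.2 against 1.17, 0.829 and 0.987 (4.01 ± 0.18, adjusted p = 6.67e-09). Sftpd, the collectin surfactant protein D, measured 8.09, 10.4 and 10.2 against 0.576, 0.237 and 0.429 (3.92 ± 0.22). For these genes no submandibular pool came near a lacrimal pool. The lysozyme probes Lyz1 and Lyz2 were not called, at 5.52 to 7.39 against 3.48 to 10.1 and at 6.68 to 9.29 against 6.89 to 11.3. Without submandibular pool A, Lyz1 was called higher in the lacrimal gland (0.62, adjusted p = 0.0238).

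Genes named for pancreatic digestive enzymes were split, with 5 of 13 probes (38.5%) called higher in the lacrimal and 3 (23.1%) higher in the submandibular gland. When single arrays were left out, 3 to 6 and 1 to 3 were called. Beside Pnliprp1, Cpb1, a carboxypeptidase, measured 4.09, 8.20 and 6.71 against 0.333, 0.318 and 0.24 (3.54 ± 0.21, adjusted p = 7.66e-08). Sycn, syncollin of zymogen granules, measured 4.26 to 4.87 against 1.40 to 2.64 (1.07 ± 0.20, adjusted p = 0.00101). Amy1 was the member with the largest difference in the submandibular direction.

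Of 32 probes for transport of water and ions, 13 (40.6%) were called higher in the submandibular and 6 (18.8%) in the lacrimal gland, with a median of -0.37. Fxyd2, the gamma subunit of the sodium pump, measured 273, 286 and 278 in the submandibular pools against 2.07, 2.12 and 4.32 (-6.58 ± 0.25, adjusted p = 1.66e-09). Atp1b1, a beta subunit of the same pump, measured 51.1, 80.3 and 66.2 against 0.977, 1.15 and 1.45 (-5.51 ± 0.27, adjusted p = 1.96e-08). Both subunits were far higher in every submandibular pool than in any lacrimal pool. Atp1b3, another beta subunit, ran the other way, at 13.9, 16.6 and 16.6 in the lacrimal and 9.55, 8.28 and 10.5 in the submandibular pools (0.72 ± 0.17, adjusted p = 0.0054).

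The epithelial sodium channel, which takes up sodium from the duct fluid, was higher in the submandibular gland for the subunits Scnn1a and Scnn1b. Scnn1a measured 37.9, 33.7 and 33.1 against 2.18, 1.59 and 1.73 (-4.08 ± 0.25, adjusted p = 9.77e-08), and Scnn1b 8.49, 8.33 and 7.67 against 0.353, 0.44 and 0.354 (-3.74 ± 0.16, adjusted p = 5.77e-09). The chloride channel Cftr, looked at after its values were seen, measured 6.42, 5.09 and 5.40 against 0.313, 0.656 and 0.497 (-3.02 ± 0.20, adjusted p = 2.53e-07). Of 16 probes for duct cell markers, 10 (62.5%) were called higher in the submandibular and 2 (12.5%) in the lacrimal gland, with a median of -1.15. Their summed intensity was 521 to 553 in the submandibular and 125 to 150 in the lacrimal pools, and most of the submandibular sum was Fxyd2. The ductal keratin Krt7 measured 31.7 to 38.2 against 4.40 to 5.23 (-2.81 ± 0.13, adjusted p = 1.07e-08), while the simple epithelial keratin Krt18 was higher in the lacrimal gland, at 70.0 to 91.5 against 36.5 to 40.9 (0.98 ± 0.16, adjusted p = 0.000578).

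On the lacrimal side, Aqp8, an aquaporin, measured 41.6, 45.4 and 56.4 against 0.217, 0.377 and 0.162 (6.60 ± 0.19, adjusted p = 1.77e-10). Its submandibular values lie near the dim end of the arrays, and with a 4-fold larger offset the difference was 5.28. The brighter of 2 probes for Kcnma1, the large-conductance potassium channel, measured 17.8, 15.6 and 14.8 against 7.59, 7.46 and 8.18 (1.03 ± 0.15, adjusted p = 0.000163), and the dimmer probe was not called (0.13 ± 0.16). Aqp1, the water channel of small vessels, measured 0.794 to 1.04 against 0.381 to 0.463 (0.78 ± 0.14, adjusted p = 0.00108). Slc12a2, the sodium-potassium-chloride cotransporter that loads acinar cells with chloride, measured 71.3 and 66.5 in submandibular pools A and B, 0.316 in pool C, and 6.35, 2.68 and 4.18 in the lacrimal pools. It was not called (-1.66 ± 1.38, adjusted p = 0.363), and without submandibular pool C the difference was -3.97 (adjusted p = 1.55e-06), so this result turns on that pool.

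**Figure D3:**
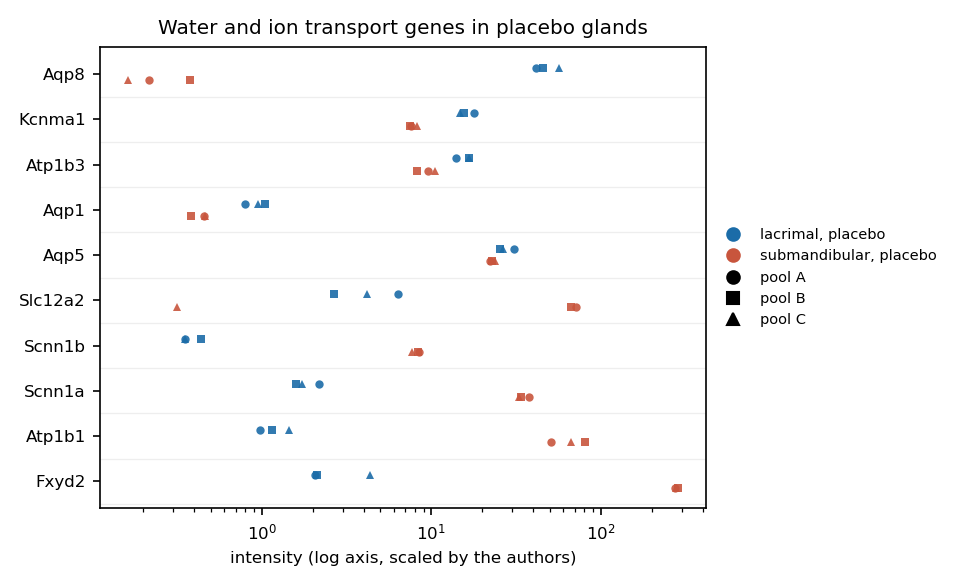
Intensity, on a log axis, of 10 water and ion transport genes in the placebo pools, with blue marks for lacrimal, red marks for submandibular, and circles, squares and triangles for pools A, B and C. Aqp8 is high in all 3 lacrimal pools and Fxyd2, Atp1b1, Scnn1a and Scnn1b in all 3 submandibular pools, Aqp5 is alike in both, and submandibular pool C lies apart for Slc12a2, at 0.316.

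Receptors and signalling for secretion were called in both directions, 7 of 33 probes (21.2%) higher in the lacrimal gland and 9 (27.3%) in the submandibular. Adra1b, an alpha-1 adrenergic receptor, measured 2.11, 4.55 and 2.94 in the lacrimal and 1.29, 1.11 and 0.935 in the submandibular pools (1.29 ± 0.24, adjusted p = 0.00118). Vipr1, a receptor of vasoactive intestinal peptide, measured 1.07 to 1.96 against 0.488 to 0.705 (1.05 ± 0.20, adjusted p = 0.00116). On the submandibular side were parts of the calcium store: Atp2a3, a calcium pump of the endoplasmic reticulum, measured 11.6, 8.69 and 10.3 against 0.216, 0.484 and 0.481 (-4.04 ± 0.19, adjusted p = 1.15e-08), and Itpr2, an inositol trisphosphate receptor that releases that calcium, measured 4.43 to 6.13 against 0.553 to 0.8 (-2.49 ± 0.20, adjusted p = 1.16e-06). Adcy6, an adenylyl cyclase, measured 5.19 to 7.72 against 1.80 to 1.87 (-1.60 ± 0.16). The muscarinic receptor Chrm3 lay below the 40th percentile of the array in both glands and was not tested.

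Genes that fold and export secretory protein were mostly higher in the lacrimal gland. Of 74 probes 49 (66.2%) were called higher there and 4 (5.41%) in the submandibular gland, with a median of 0.73, and after quantile normalization the counts were 39 and 6 with a median of 0.52. Hspa5, the main chaperone of the endoplasmic reticulum, measured 56.4, 59.8 and 73.8 against 27.8, 23.7 and 24.7 (1.30 ± 0.18, adjusted p = 9.89e-05). Xbp1, a transcription factor of secretory cells and of the unfolded protein response, measured 77.9, 73.1 and 87.8 against 34.5, 30.6 and 14.5 (1.66 ± 0.26, adjusted p = 0.000368). For both genes all lacrimal pools were above all submandibular pools.

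Genes of other steps of export were also called higher in the lacrimal gland. Ssr4, a subunit of the translocon-associated complex, measured 81.2 to 93.7 against 22.9 to 33.2 (1.65 ± 0.18, adjusted p = 1.59e-05). Spcs2, of the signal peptidase, measured 161, 160 and 185 against 48.1, 57.3 and 68.2 (1.55 ± 0.14, adjusted p = 4.02e-06). Sdf2l1, a cofactor of the chaperones, measured 57.8, 89.3 and 83.6 against 21.2, 19.9 and 19.0 (1.90 ± 0.17, adjusted p = 3.89e-06). The submandibular exceptions included Sec63, of the translocon, at 3.35 to 6.84 against 1.32 to 2.24 (-1.53 ± 0.29, adjusted p = 0.00133), and the cargo receptor Lman2, at 4.04 to 5.23 against 1.75 to 2.37 (-1.05 ± 0.16, adjusted p = 0.000225). The chaperone Hsp90b1 was not called, at 55.5 to 66.6 against 61.9 to 64.2, and after quantile normalization it was called towards the submandibular gland (-0.47, adjusted p = 0.0132).

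The endoplasmic reticulum stress response element, a sequence bound by the factors ATF6 and NF-Y in promoters of chaperone genes, was searched as CCAAT, any 9 bases and CCACG, on both strands of the 250 bases before each RefSeq start site (build GRCm38.p6). It was found before 35 of 27025 genes (0.130%). Of the folding and export genes called higher in the lacrimal gland, 41 of 49 had a promoter in the table, and 7 of these (17.1%) held the element: Calr, Canx, Dnajc3, Ero1b, Hspa5, Pdia6 and Syvn1. The calls of Calr, Ero1b and Pdia6 were lost when some single arrays were left out. Among the other tested genes of the list, 1 of 17 (5.88%), Hsp90b1, held it. The groups differ in size and the shares were not tested against each other. Dnajc3, which inhibits an initiation factor kinase, measured 24.5, 26.5 and 27.1 against 10.8, 13.8 and 13.7 (1.02 ± 0.16, adjusted p = 0.000368), and Syvn1, a ubiquitin ligase of misfolded proteins, measured 9.80, 10.8 and 11 against 5.16, 3.69 and 4.31 (1.23 ± 0.14, adjusted p = 2.1e-05). Stretches of 110 bases before these start sites and that of Hspa5 are shown so that the element, in capitals, can be compared between genes that were high together. They are written 5′ to 3′ on the plus strand, which is the strand of all 3 genes, at chr2:34771980-34772089, chr14:118937812-118937921 and chr19:6046466-6046575, and the element ended 46, 86 and 25 bases before the start site of Hspa5, Dnajc3 and Syvn1. The stretches of Hspa5 and Syvn1 run up to the start site, while that of Dnajc3 stops short of it.
Hspa5: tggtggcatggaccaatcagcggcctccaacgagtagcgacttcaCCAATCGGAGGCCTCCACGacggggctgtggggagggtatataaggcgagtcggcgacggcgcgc
Dnajc3: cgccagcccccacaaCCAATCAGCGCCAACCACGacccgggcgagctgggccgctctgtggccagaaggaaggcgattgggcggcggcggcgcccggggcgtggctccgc
Syvn1: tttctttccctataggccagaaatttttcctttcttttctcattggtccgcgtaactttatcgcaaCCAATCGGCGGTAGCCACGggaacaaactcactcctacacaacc

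Cytosolic ribosomal proteins were called higher in the lacrimal gland for 45 of 55 probes (81.8%) and in the submandibular gland for 1, with a median of 0.80. Rpl3, of the large subunit, measured 159, 210 and 217 against 75.5, 56.4 and 58.3 (1.62 ± 0.16, adjusted p = 9.81e-06), and Rps6, of the small subunit, measured 146, 164 and 172 against 67.5, 65.0 and 75.6 (1.21 ± 0.17, adjusted p = 0.000183). The exception was Rpl8, at 51.1, 43.1 and 47.5 in the lacrimal and 65.1, 68.3 and 71.5 in the submandibular pools (-0.53 ± 0.14, adjusted p = 0.0109). These are bright probes, in the range where all probes leaned to the lacrimal gland, and after quantile normalization 20 were called higher in the lacrimal and 2 higher in the submandibular gland, with a median of 0.24. In the testosterone pools 16 of the 55 probes were called higher in the lacrimal gland, near the share of all probes (26.8%), and 1 in the submandibular gland, beside 23.1%. The median there was 0.25, against 0.05 over all probes. For 17 of the probes the change of the gland difference was called towards the submandibular gland, beside 10.9% of all probes, and for 1 towards the lacrimal gland.

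Mitochondrial genes ran the other way. Of 42 probes for oxidative phosphorylation, 21 (50%) were called higher in the submandibular and 1 in the lacrimal gland, with a median of -0.42, and after quantile normalization 30 and 1 with a median of -0.72. Sdha, of respiratory complex II, measured 41.9, 60.3 and 57.6 against 24.0, 25.3 and 21.6 (-1.15 ± 0.15, adjusted p = 9.59e-05), and Cyc1, cytochrome c1 of complex III, measured 19.9, 26.0 and 30.0 against 10.8, 11.7 and 11 (-1.14 ± 0.15, adjusted p = 6.75e-05). The 1 lacrimal call was Cox6a2, a cytochrome oxidase subunit that is also in the skeletal muscle marker list. It was at least 2-fold, and the call was lost when some single arrays were left out. The largest submandibular differences were those of Cox8b and Cox7a1, subunits of cytochrome oxidase typical of muscle and brown fat. Cox8b measured 22.6, 13.5 and 32.6 against 0.489, 0.351 and 0.381 (-5.06 ± 0.36, adjusted p = 4.13e-07), and Cox7a1 measured 5.74, 6.11 and 9.06 against 0.367, 0.422 and 0.34 (-3.50 ± 0.18, adjusted p = 2.3e-08).

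Of 36 probes for the tricarboxylic acid cycle, mitochondrial carriers and creatine, 20 (55.6%) were called higher in the submandibular and 5 in the lacrimal gland, with a median of -0.62 (14 to 21 and 2 to 5 when single arrays were left out). Ckmt1, the mitochondrial creatine kinase of epithelia, measured 32.0, 28.9 and 15.9 against 0.641, 0.744 and 0.803 (-4.67 ± 0.22, adjusted p = 1.25e-08). Slc25a4, an adenine nucleotide carrier, measured 44.8, 33.4 and 37.7 against 5.21, 5.98 and 7.33 (-2.60 ± 0.16, adjusted p = 1.28e-07), and Ppargc1a, a coactivator that drives mitochondrial genes, measured 1.86 to 2.78 against 0.315 to 0.425 (-2.06 ± 0.23, adjusted p = 2.17e-05). On the lacrimal side Me1, the cytosolic malic enzyme, which yields NADPH, measured 7.30, 8.55 and 9.01 against 1.27, 1.18 and 1.67 (2.40 ± 0.19, adjusted p = 1.05e-06), and Tfam, which maintains mitochondrial DNA, measured 4.49 to 5.50 against 1.96 to 2.33 (1.13 ± 0.14).

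**Figure D4:**
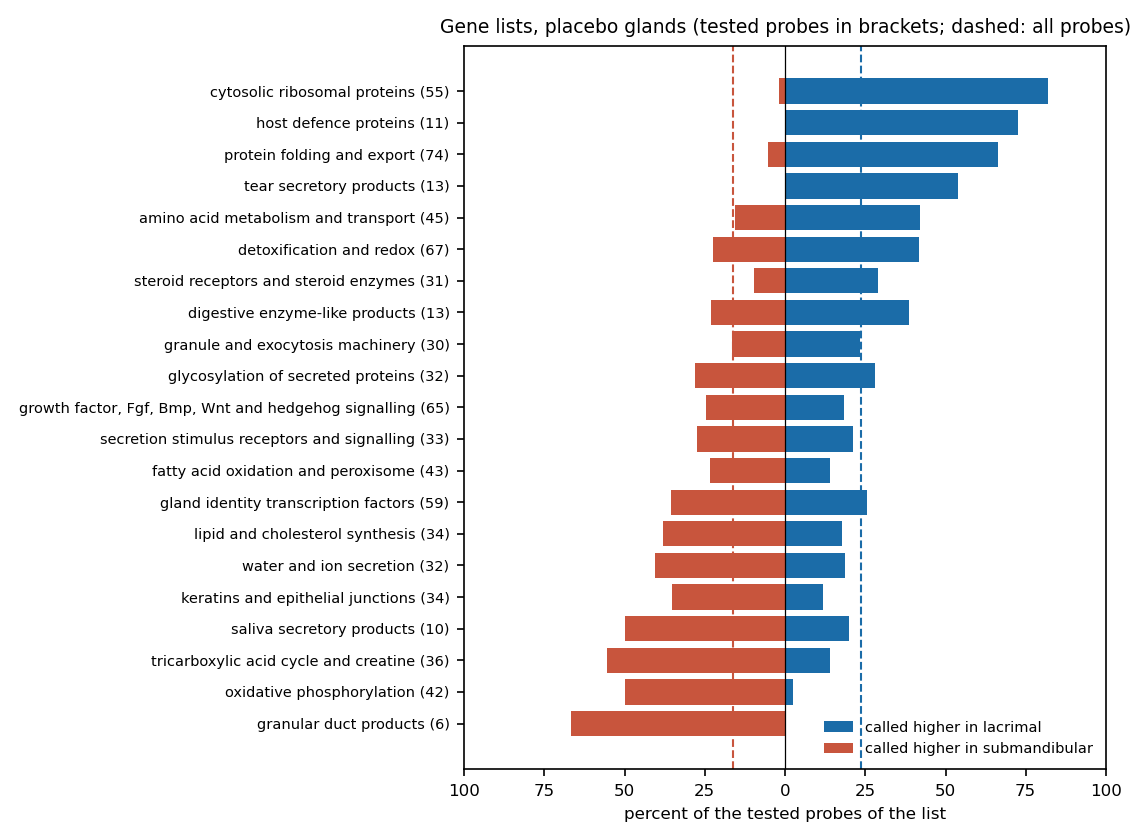
Percent of the tested probes of each gene list that were called higher in the lacrimal gland (blue, to the right) or in the submandibular gland (red, to the left), with the number of tested probes in brackets. Dashed lines mark the shares over all 7090 probes, 23.8% and 16.2%. Ribosomal proteins (81.8%) and protein folding and export (66.2%) reach far right, and granular duct products, the tricarboxylic acid cycle (55.6%) and oxidative phosphorylation (50%) far left.

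Markers of fat cells that were called were also higher in the submandibular gland. Of 8 adipocyte markers, 5 (62.5%) were called higher in the submandibular gland and 0 in the lacrimal gland. Adipoq, Gpd1 and Lipe were not called, and Fabp4 is also a member of the lipid list. The summed intensity of the 8 markers was 73.9, 96.6 and 175 in submandibular pools A, B and C against 12.8 to 14.7 in the lacrimal pools. Fabp4, the fatty acid carrier of fat cells, measured 37.0, 53.1 and 90.2 against 3.47 to 4.03 (-3.80 ± 0.26, adjusted p = 3.4e-07), and the fat cell hormone Retn measured 6.24, 6.82 and 9.82 against 0.834 to 1.40 (-2.56 ± 0.20). Pck1 (3.27, 2.20 and 8.89) and Car3 (14.3, 8.67 and 22.4) were likewise highest in submandibular pool C. Ucp1, the uncoupling protein of brown fat, was looked at after its values were seen: it measured 4.34, 2.12 and 0.421 in the submandibular pools and so was lowest in pool C. The part of fat cells in the mitochondrial and lipid results was not tested.

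Lipid synthesis and storage genes were called higher in the submandibular gland for 13 of 34 probes (38.2%) and in the lacrimal gland for 6 (17.6%). Scd1, the stearoyl-CoA desaturase, measured 23.6, 18.7 and 18.3 against 3.38, 3.60 and 2.47 (-2.60 ± 0.26, adjusted p = 9.66e-06), while its relative Scd2 was higher in the lacrimal gland, at 19.0, 13.2 and 15 against 8.80, 6.32 and 7.40 (1.04 ± 0.20, adjusted p = 0.00138). The fatty acid carrier Fabp5 measured 22.6 to 25.7 against 1.90 to 2.45 (-3.35 ± 0.15, adjusted p = 5.77e-09). Of 43 probes for fatty acid oxidation and peroxisomes, 6 (14%) were called higher in the lacrimal and 10 (23.3%) higher in the submandibular gland, beside 23.8% and 16.2% of all probes. Phyh, a peroxisomal enzyme that breaks down phytanic acid, measured 427, 426 and 420 against 27.2, 26.4 and 29.8 (3.92 ± 0.14, adjusted p = 1.21e-09), and Hsd17b4, of peroxisomal oxidation, measured 22.1 to 29.5 against 4.11 to 5.24 (2.36 ± 0.16). Acadvl and Acads, mitochondrial acyl-CoA dehydrogenases, were higher in the submandibular gland, by -1.16 ± 0.17 and -1.48 ± 0.24.

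Amino acid genes were called higher in the lacrimal gland for 19 of 45 probes (42.2%) and in the submandibular gland for 7 (15.6%). Slc7a5, the transporter of large neutral amino acids, measured 8.57, 8.59 and 7.71 against 1.38, 1.19 and 1.90 (2.31 ± 0.19, adjusted p = 1.18e-06). The arginases split: the mitochondrial Arg2 measured 5.76, 7.31 and 7.25 in the lacrimal and 0.359, 0.343 and 0.141 in the submandibular pools (3.75 ± 0.20, adjusted p = 3.03e-08), and the cytosolic Arg1 measured 2.08 to 3.11 in the lacrimal and 8.28 to 11.7 in the submandibular pools (-1.82 ± 0.20, adjusted p = 1.62e-05).

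Detoxifying and redox enzymes were called for 28 of 67 probes in the lacrimal (41.8%) and 15 in the submandibular direction (22.4%). Adh1, the class I alcohol dehydrogenase, measured 116, 163 and 165 against 6.41, 4.52 and 7.40 (4.55 ± 0.20, adjusted p = 5.95e-09), and Gsta3, a glutathione transferase, measured 56.9, 46.5 and 54.3 against 3.33, 1.80 and 2.48 (4.28 ± 0.26, adjusted p = 1.05e-07). On the submandibular side Cyp2e1, which oxidises ethanol and other small molecules, measured 15.7, 13.2 and 21.0 against 2.07 to 2.23 (-2.79 ± 0.30, adjusted p = 1.66e-05), and Aldh1a1, a retinaldehyde dehydrogenase, measured 9.56 to 11.9 against 1.36 to 1.65 (-2.67 ± 0.14, adjusted p = 3.39e-08).

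Enzymes that act on steroids also differed without testosterone. Akr1c18, which inactivates progesterone, measured 50.1, 49.9 and 56.7 in the lacrimal and 0.272, 0.117 and 0.303 in the submandibular pools (6.79 ± 0.18, adjusted p = 1.1e-10). Its submandibular values lie near the dim end of the arrays, and the difference was 5.44 with a 4-fold larger and 7.54 with a 4-fold smaller offset. The related Akr1c20 measured 8.95 to 9.79 against 0.206 to 0.442 (4.07 ± 0.17). Sult1e1, the estrogen sulfotransferase, measured 6.38, 6.83 and 5.98 in the submandibular pools against 0.386, 0.423 and 0.431 (-3.33 ± 0.27, adjusted p = 1.16e-06), and Hsd11b1, which reactivates glucocorticoids, measured 8.15 to 8.74 against 0.952 to 1.17 (-2.76 ± 0.19). Of the 31 probes for steroid receptors and steroid enzymes, 9 (29%) were called higher in the lacrimal gland and 3 (9.68%) in the submandibular. Fkbp5, a cochaperone of steroid receptors, was not called, at 1.30, 1.62 and 1.35 against 1.19, 1.33 and 0.327 (0.60 ± 0.33, adjusted p = 0.163).

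Enzymes that build the glycans of secreted proteins were called in both directions, 9 of 32 probes (28.1%) each way. Among sialyltransferases, which add sialic acid, St3gal1, St3gal4, St3gal5 and a probe of St3gal6 were called higher in the submandibular gland, and St6galnac1 and St6galnac2 in the lacrimal gland. St3gal1 measured 11.4, 9.45 and 13.2 against 0.635, 0.759 and 0.958 (-3.49 ± 0.25, adjusted p = 4.18e-07), and St3gal4 measured 39.6, 36.2 and 4.04 against 0.415, 0.481 and 0.488 (-4.70 ± 0.68, adjusted p = 0.000185), with pool C lowest, and by -5.75 without pool C. St3gal5 differed by -2.15 ± 0.21 and the brighter of 2 probes for St3gal6 by -2.10 ± 0.29, while the second St3gal6 probe was not called (-0.61) but was called without lacrimal pool C (-0.84, adjusted p = 0.0201). Lacrimal genes were Man2a1, a Golgi mannosidase that trims N-glycans, at 95.1, 78.6 and 81.9 against 9.44, 8.55 and 8.99 (3.20 ± 0.14, adjusted p = 6.51e-09), and Chst2, which adds sulfate to N-acetylglucosamine, at 11.2, 12.7 and 7.67 against 0.923, 0.902 and 0.54 (3.37 ± 0.26, adjusted p = 7.78e-07).

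Genes of granules and exocytosis were called near the shares of all probes, 7 of 30 (23.3%) in the lacrimal and 5 (16.7%) in the submandibular direction, with 4 to 7 lacrimal calls when single arrays were left out. Rab3d, a small GTPase of zymogen granules, measured 2.34, 3.42 and 3.35 against 1.43, 1 and 1.03 (1.22 ± 0.24, adjusted p = 0.00143). The syntaxins, which fuse membranes, split: Stx11 measured 7.49 to 8.81 in the lacrimal and 1.55 to 1.92 in the submandibular pools (2.04 ± 0.15), and Stx7 1.56 to 2.21 and 8.01 to 13.8 (-2.38 ± 0.26).

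Transcription factors that mark gland identity were called for 15 of 59 probes (25.4%) in the lacrimal and 21 (35.6%) in the submandibular direction. Pax6, which is needed for eye and lacrimal gland development, measured 14.7, 13.4 and 9.93 against 0.481, 0.573 and 0.548 (4.03 ± 0.16, adjusted p = 2.51e-09). Foxc2, Alx4 and Hoxc4, patterning factors, were also higher in the lacrimal gland: Foxc2 measured 6.23 to 7.13 against 0.0969 to 0.368 (3.81 ± 0.20), Alx4 3.96 to 4.49 against 0.264 to 0.403 (2.95 ± 0.15), and Hoxc4 80.7, 105 and 116 against 10.4, 3.54 and 13.2 (3.61 ± 0.38). Submandibular factors were Tfcp2l1, a factor of duct epithelia, at 11.1, 15.8 and 14.8 against 1.18, 0.819 and 0.812 (-3.58 ± 0.18, adjusted p = 1.87e-08), and Sox10, a factor of salivary epithelium and of Schwann cells, at 7.76, 14.0 and 13.7 against 1.5, 1.30 and 1.15 (-2.90 ± 0.22, adjusted p = 7.41e-07).

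Ascl3 and Foxi1, factors of ion-transporting duct cells, were looked at after their values were seen, and they measured 23.3 to 23.5 against 6.39 to 7.32 (-1.74 ± 0.14) and 10.2 to 14.5 against 3.36 to 5.18 (-1.51 ± 0.20). Bhlha15, the acinar factor Mist1, was not called, at 7.29, 14.6 and 17.9 in the lacrimal and 8.63, 6.68 and 7.95 in the submandibular pools (0.67 ± 0.36, adjusted p = 0.163). Lacrimal pool A lay inside the submandibular range and pools B and C above it, and without pool A the gene was called (1.04, adjusted p = 0.0329). Of the 9 tested acinar markers, 3 (33.3%) were called higher in the lacrimal gland and 0 in the submandibular gland. The 3 were Dmbt1 and Lpo, also counted among proteins of host defence, and Rab3d, also counted among genes of granules.

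Growth factors and developmental signals were called for 12 of 65 probes (18.5%) in the lacrimal and 16 (24.6%) in the submandibular direction. A ligand and its receptor lay on opposite sides: Gdnf, a glial cell line-derived neurotrophic factor, measured 7.58, 6.96 and 8.61 in the lacrimal and 2.82, 2.31 and 2.63 in the submandibular pools (1.49 ± 0.12, adjusted p = 1.19e-06), and Ret, the receptor that it and Nrtn act through, measured 0.899 to 1.12 in the lacrimal and 4.26 to 5.78 in the submandibular pools (-2.12 ± 0.15, adjusted p = 3.6e-07). Ptch1, the hedgehog receptor, measured 9.57, 9.43 and 17.1 in the submandibular and 0.905 to 1.02 in the lacrimal pools (-3.30 ± 0.20, adjusted p = 9.02e-08), and Wnt4 measured 3.75 to 3.94 against 0.458 to 0.645 (-2.39 ± 0.17). Tgfbr2, a receptor of transforming growth factor beta, and Notch1 were higher in the lacrimal gland, at 4.36 to 6.37 against 0.938 to 1.46 (1.96 ± 0.17) and 4.76 to 6.54 against 0.452 to 1.56 (2.17 ± 0.30).

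Myoepithelial and smooth muscle markers were called higher in the submandibular gland for 5 of 7 probes (71.4%) and in the lacrimal gland for 0. Acta2, smooth muscle actin, measured 12.2, 17.7 and 18.2 against 5.49, 4.82 and 5.38 (-1.55 ± 0.21), and Cnn1, calponin, 32.2 to 37.0 against 10.5 to 12 (-1.54 ± 0.12). Fibroblast and matrix markers were called for 9 of 28 probes (32.1%) in the submandibular and 3 (10.7%) in the lacrimal direction, and without lacrimal pool B for 5 and 2. The summed intensity of all 35 such probes on the array was 101 to 116 against 75.2 to 80.1. Jchain, the joining chain of secreted immunoglobulin, was higher in the lacrimal gland, at 32.5, 28.2 and 36.7 against 4.42, 7.31 and 7.41 (2.33 ± 0.21, adjusted p = 3.24e-06), the same direction as Pigr. Over all plasma and B cell markers 3 of 11 (27.3%) were called in each direction (1 in the lacrimal direction when some single arrays were left out), and the B cell markers Cd22 and Blnk were higher in the submandibular gland (-1.83 ± 0.46 and -0.85 ± 0.17). Cd4, of helper T cells, measured 4.28, 6.56 and 5.28 in the lacrimal and 1.87, 1.45 and 1.08 in the submandibular pools (1.72 ± 0.24, adjusted p = 0.000129).

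Among markers of macrophages and dendritic cells 3 of 20 (15%) were called in the lacrimal and 6 (30%) in the submandibular direction. Among endothelial markers 2 and 1 of 11 were called (18.2% and 9.09%), and among cell cycle genes 1 and 5 of 26 (3.85% and 19.2%). Over all probes the shares were 23.8% and 16.2%. Skeletal muscle markers were called once each way (16.7%) among 6 tested, and the summed intensity of all 17 on the array was 9.19 to 10.0 in the lacrimal and 10.1 to 23.6 in the submandibular pools. When single arrays were left out, these small counts moved, to 1 lacrimal call for macrophages, 0 for endothelium and skeletal muscle, and 3 submandibular calls for the cell cycle and for skeletal muscle. Th, tyrosine hydroxylase, the first enzyme of catecholamine synthesis, measured 170, 193 and 185 in the submandibular and 1.64, 1.40 and 1.39 in the lacrimal pools (-6.73 ± 0.14, adjusted p = 2.97e-11). Of the nerve and Schwann cell markers, 8 were tested, with 3 (37.5%) called in the submandibular and 1 (12.5%) in the lacrimal direction. Nefh, Nefm, S100b, Mag, Prph, Syn1 and Ncam1 lay below the 40th percentile of the array in both glands. The markers of mucous cells and of the parotid and Harderian glands were few: Amy1 was the called parotid marker of 2 tested, and of 6 Harderian and sebaceous markers 2 (33.3%) were called in the lacrimal and 3 (50%) in the submandibular direction.

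Many of the largest differences belonged to genes outside these groups, some with names that are not linked to either gland. On the lacrimal side, Csn1s2a, a casein of milk, measured 136, 128 and 138 against 0.808, 0.534 and 0.712 (7.18 ± 0.15, adjusted p = 2.97e-11). Bcl6b, a transcriptional repressor, measured 302, 289 and 333 against 1.95, 1.63 and 0.986 (7.48 ± 0.21), and the unannotated transcript A730035I17Rik measured 535, 518 and 490 against 5.10, 4.25 and 3.11 (6.89 ± 0.19). Anxa8, an annexin, measured 406, 480 and 424 against 6.33, 6.27 and 1.12 (6.81 ± 0.66). For each of these genes the lacrimal pools lay within a narrow range, far above the submandibular pools.

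Pf4, a platelet chemokine, measured 189, 201 and 173 in the lacrimal and 1.52, 2.30 and 2.33 in the submandibular pools (6.37 ± 0.20, adjusted p = 3.23e-10). Arhgap31 measured 303 to 355 against 3.89 to 7.52 (6 ± 0.21), Apobec3, an antiviral cytidine deaminase, 130 to 167 against 1.99 to 3.50 (5.68 ± 0.20), the serotonin receptor Htr1b 200 to 215 against 3.39 to 4.48 (5.62 ± 0.14) and the phosphatase Dusp19 55.9 to 72.9 against 1.05 to 1.21 (5.52 ± 0.16).

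On the submandibular side, Fgf5, a fibroblast growth factor, measured 313, 343 and 354 against 5.19, 5.21 and 4.27 (-6.04 ± 0.13, adjusted p = 2.97e-11), and Il3, a haematopoietic cytokine, measured 165, 155 and 191 against 2.35, 4.86 and 3.72 (-5.50 ± 0.23, adjusted p = 4.11e-09). Tesc, a calcium-binding regulator of sodium-proton exchange, measured 16.4, 20.9 and 21.8 against 0.321 to 0.421 (-4.97 ± 0.17). Twist2, a mesenchymal factor, measured 58.0 to 65.8 against 1.46 to 2.30 (-4.80 ± 0.17), Arid1a, of a chromatin remodelling complex, 129 to 147 against 4.13 to 5.53 (-4.77 ± 0.13), and the bitter taste receptor Tas2r119 54.3 to 82.2 against 2.20 to 2.96 (-4.60 ± 0.16). Egr3, an immediate early factor, measured 113, 42.8 and 39.7 against 13.8, 0.536 and 0.648 (-4.75 ± 1.15, adjusted p = 0.00605) and was highest in pool A of both glands. Without lacrimal pool A its difference was -6.12. The names are those of the array's annotation, and the probe sequences were not used here to check them.

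The same gland comparison in the testosterone pools, which share no array with the placebo pools, called 3541 of 7090 probes (49.9%). Both comparisons took the filter and the spread of each probe from the same fit of 12 arrays, so their calls are not independent of each other. Of the 2835 placebo calls, 1877 (66.2%) were called the same way there, 861 were not called and 97 were called the opposite way. The share called the same way was 80.7% of the placebo calls of at least 2-fold (871 of 1079) and 91.1% of those of at least 8-fold (144 of 158). It was 61.6% of the lacrimal calls and 73% of the submandibular calls. Across probes the placebo and testosterone differences had a Pearson r of 0.695 and a Spearman correlation of 0.641, as a description, since probes are not independent replicates.

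Sval2 (8.04), Csn1s2a (7.63), Aqp8 (6.33), Fxyd2 (-6.30), Klk1b5 (-8.16) and Th (-6.17) had testosterone differences close to their placebo ones. For none of these 6 genes was the change of the gland difference called. The change itself was called for 1357 probes (19.1%), and among the 2835 placebo calls for 769, of which 508 had a smaller and 261 a larger difference with testosterone. Egf is an example of a larger one: its testosterone difference was -6.22, a change of -2.91 (adjusted p = 3.17e-05). Smr2 also moved further to the submandibular side, to -3.01.

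Several lacrimal genes lost most of their difference in the testosterone pools. Pnliprp1 went from a placebo difference of 5.74 to a testosterone difference of -5.04, a change of -10.79 (adjusted p = 0.000183). Tenm3, a neuronal adhesion protein, measured 10.9, 11.3 and 9.82 in the lacrimal placebo pools and a mean of 0.33 in the lacrimal testosterone pools, and its difference fell from 4.22 to 0.10. Adh1 fell from 4.55 to 0.89, Phyh from 3.92 to 0.72 and Asgr1, an asialoglycoprotein receptor, from 3.12 to -1.35. With testosterone Adh1 and Phyh were still called higher in the lacrimal gland, Tenm3 and Asgr1 were not called, and Pnliprp1 was called in the opposite direction.

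Some submandibular genes crossed in the other direction. Arid1a went from -4.77 to 0.59, Ptch1 from -3.30 to 2.76, Sox11, a developmental factor, from -1.47 to 4.16 and Rsph6a, a protein of cilia, from -1.22 to 6.01, a change of 7.24 (adjusted p = 1.61e-09). Il3 and Twist2 stayed on the submandibular side, at -1.16 and -0.57, after changes of 4.34 and 4.23. Chst2 and Cyp4a12a, a fatty acid hydroxylase, widened to the lacrimal side, from 3.37 to 8.31 and from 2.77 to 8.39. The placebo pools enter both a placebo difference and its change.

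Of the gene lists, cell cycle genes stood apart between treatments: 25 of 26 tested probes were called higher in the lacrimal gland with testosterone, beside 26.8% of all probes, and 1 with placebo. The change was called towards the lacrimal gland for 21, beside 8.22% of all probes. The summed intensity of all 34 cell cycle probes on the array was 127 to 155 in the lacrimal testosterone pools, 39.4 to 40.1 in the lacrimal placebo pools and 41.6 to 57.0 in the submandibular pools of both treatments. Mki67, a marker of dividing cells, measured 9.54, 6.37 and 6.07 with testosterone against 0.377 to 0.418 with placebo in the lacrimal gland, and its difference went from -1.13 to 2.28. Many of these probes were dim in the placebo pools and passed the filter through the testosterone pools, so their count is a description. Fibroblast and matrix markers were called higher in the submandibular gland for 22 of 28 probes with testosterone, beside 23.1% of all probes, and for 9 with placebo. Among them was Mgp, an inhibitor of calcification, whose difference went from -1.39 to -3.82. Of the tested markers, Col4a2, Col1a2, Pdgfrb, Thbs1, Timp1 and Tnc lay below the 40th percentile in the lacrimal placebo pools. They passed the filter through other arrays, so both counts are descriptions.

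**Figure D5:**
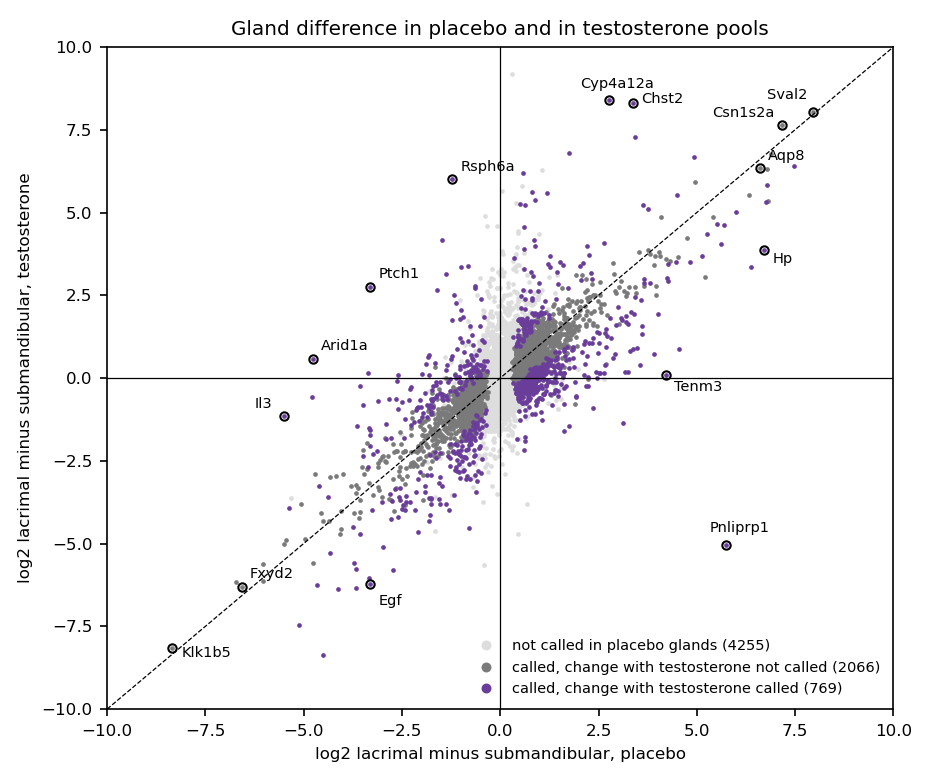
Log2 difference lacrimal minus submandibular of the 7090 tested probes in the placebo pools (horizontal) and in the testosterone pools (vertical), with the dashed line where both are equal. Dark grey points were called between the placebo glands with no called change, purple points (769) were called and changed with testosterone, and light grey points (4255) were not called between the placebo glands. Sval2, Aqp8, Fxyd2 and Klk1b5 lie near the line, Pnliprp1 lies below it at -5.04, and Rsph6a and Ptch1 lie above 0 at 6.01 and 2.76.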

How the data were processed

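RNA of pooled lacrimal and submandibular glands was measured on one-colour arrays. The authors deposited intensities on a linear scale, scaled between arrays, while the model of the array, its scanner and the scaling method are not given in the sources used here. A code of -1 was read as missing, and the lowest other value, -0.128, was set to 0. The deposited intensities were turned into log2(intensity + 0.249), whose offset equals percentile 10 of all positive values on the 12 arrays. Probes needed at least 2 values per group and a value above the array's 40th percentile on at least 3 arrays. Of 10500 probes, 48 lacked enough values, 3362 were too dim and 7090 were tested, of which 851 had no single gene symbol in the platform annotation.

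The 12 lacrimal and submandibular arrays were fitted with limma 3.58.1 (lmFit and eBayes with a trend, 8 residual degrees of freedom) in R 4.3.3, with a mean per group, and p-values were adjusted by Benjamini-Hochberg at 0.05. Scripts were tested on simulated data. The change with testosterone is the interaction of gland and treatment. P-values measure the spread between these pools. Deviations of same-letter pools of both glands had correlations of -0.0634, -0.0239 and -0.0293 with placebo and 0.128, -0.0301 and 0.0789 with testosterone. Those of pools with different letters ran from -0.137 to 0.113. The letters were not used as pairs.

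Genes were named by a rule: the 15 largest called differences per direction, up to 4 called members per direction of each list, the 6 largest changes each way with testosterone, the brightest probes and a set of gland genes. Ascl3, Foxi1, Cftr, Ucp1, Chia1, Chil3, St6galnac1, St6galnac2 and the genes of the promoter search were chosen after their values were seen. The comparison, the lists and the genes were chosen with earlier results of these data known. Alternatives changed the arrays fitted, offset, filter, scaling, variance model, threshold and probes per gene, and left out single arrays. Robust regression and leaving out both lacrimal pools with high Amy1 (placebo pool A and testosterone pool C) were added after the data were seen.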

Additional observations from a re-analysis of the deposited data

Results flagged for a closer look

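These genes were called between the placebo glands, and their gland difference with testosterone minus that with placebo was called by the interaction test of limma (adjusted p under 0.05). Each value is that change on the log2 scale, and a negative value is a shift towards the submandibular gland. The change can come from either gland.

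Genes higher in the lacrimal gland with placebo, with a smaller difference in the same direction with testosterone, were Tenm3 (-4.12), Adh1 (-3.66), Phyh (-3.20), Pf4 (-3.01), Hp (-2.85), Dmbt1 (-2.07), Hoxc4 (-2.03), Htr1b (-1.57), Ltf (-1.44), Gsta3 (-1.35), Alx4 (-1.34), Man2a1 (-1.33), Hsd17b4 (-1.14), Bcl6b (-1.08), Apobec3 (-1.06), Arhgap31 (-0.99), Ssr4 (-0.99), Akr1c18 (-0.95), Foxc2 (-0.93), Dusp19 (-0.87) and Rpl3 (-0.75). Krt18 (-0.97) had a difference of 0.00 with testosterone. The lacrimal difference was larger with testosterone for Syvn1 (0.60), Slc7a5 (0.85), Agr2 (1.03), Chst2 (4.94) and Cyp4a12a (5.61). It took the opposite sign with testosterone for Pnliprp1 (-10.79), Asgr1 (-4.47), Kcnma1 (-2.06), Atp1b3 (-1.58), St6galnac2 (-1.41) and Cct4 (-0.70). For St6galnac2 and Cct4 the testosterone difference was small, at -0.25 and -0.21. The Cct4 value is of the probe called higher in the lacrimal gland, and another Cct4 probe was called the other way with placebo (-0.49). The Kcnma1 value is of its brighter probe, and the dimmer probe was not called with placebo.

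Genes higher in the submandibular gland with placebo, with a smaller difference in the same direction with testosterone, were Cox7a1 (1.16), St3gal5 (1.19), Ret (1.22), Tas2r119 (1.34), Fabp5 (1.85), Mucl1 (1.96), St3gal1 (2.69), Twist2 (4.23) and Il3 (4.34). The submandibular difference was larger with testosterone for Egf (-2.91), Sult1e1 (-2.72), Mgp (-2.42), Cnn1 (-2.26), Acta2 (-2.10), Smr2 (-1.98), Slc25a4 (-1.59), Ckmt1 (-1.58), Itpr2 (-1.46), Wnt4 (-1.34), Muc13 (-1.15), Hsd11b1 (-0.94), Blnk (-0.92), Scnn1b (-0.76), Aldh1a1 (-0.69) and Krt7 (-0.68). It took the opposite sign with testosterone for Rpl8 (0.64), Lman2 (1.07), Arg1 (2.53), Scd1 (2.67), Mki67 (3.42), Arid1a (5.36), Sox11 (5.63), Ptch1 (6.06) and Rsph6a (7.24). For Lman2, Scd1 and Rpl8 the testosterone difference was small, at 0.02, 0.08 and 0.10, so the gland difference was lost rather than reversed.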

How the results depend on the processing

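The count of 2835 placebo calls ran from 2314 to 2910 when single arrays were left out, and was 4026 with robust regression. At an adjusted p of 0.01, 1122 probes were called higher in the lacrimal gland, and the change with testosterone was called for 725 (339 towards the lacrimal and 386 towards the submandibular gland). Tested against a log2 difference of 0.5 (limma treat), 1015 probes were called with placebo (541 and 474), 1622 with testosterone (859 and 763) and 474 for the change (233 and 241, all 474 at least 2-fold). Without both lacrimal pools with high Amy1 the change was called for 818 (352 and 466), and with robust regression for 2589 (1128 and 1461), against 1357 in the report. The count for the change ran from 971 to 1438 when single arrays were left out. With a replicate block for the letter, 2717 placebo calls were made, and the letters are not known to pair the pools. With a 4-fold larger offset 764 placebo calls were at least 2-fold, and with a 4-fold smaller offset 1263, against 1079 in the report. Quantile normalization turned Car6 to -0.40. Genes not called in the report were called under single settings: Fkbp5 with array weights (1), Aqp5 and Slc12a2 with robust regression (0.23 and -3.77), Hsp90b1 with quantile normalization (-0.47) and the second St3gal6 probe with all 18 arrays (-0.67), quantile normalization (-0.71) and robust regression (-0.62). Chia1, not called in the report, was called with all 18 arrays (-5.36), the placebo arrays alone (-5.30), array weights (-5.64) and robust regression (-5.47). The calls of Pdia6, Calr, Chil3, Ucp1, Cct4, Ero1b and 1 Gnas probe were lost when some single arrays were left out. Robust regression and the joint left-out pools were chosen after seeing the data. The causes of these shifts were not tested. With 3 pools a gland, small differences of dim probes near the array floor are the least certain.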
